A study of Mus musculus with 9 samples.

Results

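The comparison described here set 3 hearts of Col4a3-/-OPN-/- mice against 3 hearts of Col4a3-/- mice, and so asked what differed in hearts that already lacked Col4a3 when osteopontin was lacking as well. It took 6 of the 9 arrays of the series. Its genes were all probe sets with 1 gene symbol whose mean signal over the 9 arrays lay above 5.21, the median of all probe sets on the log2 scale. That rule kept 13650 of 33793 probe sets, standing for 13085 genes.

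All mice were 2 months old, and each array held RNA of 1 snap frozen whole heart. The Col4a3-/- group carried the Col4a3 null allele alone and the Col4a3-/-OPN-/- group carried it together with the null allele of the osteopontin gene, so Col4a3 was lacking on both sides of the comparison. Wild type hearts (n = 3) of the same age are given beside them as a reference level. The labels name no strain, sex, litter or drug. There was thus no group that lacked osteopontin alone, and nothing in these samples tells what its loss does in a heart with intact Col4a3. Nothing in the labels says more on how the 3 hearts of a genotype were obtained, so p-values measure only the spread between these hearts.

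Col4a3 encodes a chain of type IV collagen, the network-forming collagen of basement membranes, and mice without it are a model of Alport syndrome, in which the filtration barrier of the kidney fails. Osteopontin, the product of Spp1, is a secreted phosphorylated glycoprotein whose RGD motif binds integrins of the alpha-v family and others, and which also binds Cd44. In the heart it is low at rest and is made by macrophages, fibroblasts and other cells after injury or pressure load, where it is known for its part in fibrosis and inflammation.

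The deleted genes gave no check of the genotypes. The probe set for Col4a3 was under the level needed for testing in its mean: the Col4a3-/- hearts read 5.27, 4.96 and 5.19, the Col4a3-/-OPN-/- hearts 5.17, 4.87 and 5.26, and the wild type hearts 5.07, 5.31 and 5.52, in overlapping ranges. Spp1 had no probe set of its own name. The label of the tissue held: Myh6, the main myosin of mouse heart muscle, read between 12.1 and 12.4 in every heart. Col4a3-/- hearts varied more among themselves, with a median SD per probe set of 0.211 log2 units against 0.135 in Col4a3-/-OPN-/- hearts and 0.121 in wild type hearts. Col4a3-/- replicates 1 and 3 and Col4a3-/-OPN-/- replicate 2 had a high signal of Xist, the RNA of the inactive X chromosome, and the other hearts a low one, so the genotypes did not hold the same mix of sexes. Differences are therefore also given within hearts of high Xist signal (2 against 1) and of low Xist signal (1 against 2) where a result turns on them.

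Genes of smooth muscle, platelets, drug metabolism, vesicle coats, lipid amides and fibroblast matrix, 1 of each, rose when osteopontin was lacking as well. They were Myh11, Ppbp, Cyp2d22, Snap91, Pm20d1 and Cilp, 6 of the 13650 probe sets (0.044%), and no gene fell past the adjusted threshold of 0.05 in limma. Values below are log2 signals and are given for replicates 1, 2 and 3 of a group in that order. Myh11, the myosin heavy chain of smooth muscle, stood at 6.90, 7.01 and 6.73 in Col4a3-/- hearts and at 8.15, 8.14 and 8.17 in Col4a3-/-OPN-/- hearts. The groups were separated by more than a log2 unit, and the wild type hearts, at 7.83, 8.01 and 7.99, lay just under the Col4a3-/-OPN-/- hearts. Myh11 thus rose 2.42-fold (log2 difference 1.28, SE 0.13, adjusted p = 0.0104 in limma). In whole hearts, more smooth muscle cells and more Myh11 RNA in each cannot be told apart.

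Ppbp encodes a chemokine stored in the alpha granules of platelets. It was dim in Col4a3-/- hearts, at 4.89, 4.95 and 5.37, and stood at 7.01, 6.46 and 6.44 in Col4a3-/-OPN-/- hearts and at 5.14, 5.52 and 5.22 in wild type hearts. Here the Col4a3-/-OPN-/- hearts stood above both other genotypes, without overlap (log2 difference 1.56, SE 0.18, adjusted p = 0.0258 in limma). Ppbp passed the filter only through the Col4a3-/-OPN-/- hearts, as the other hearts together averaged under 5.21. With no filter its adjusted p was 0.0328 in limma. No fold is given for Ppbp or for Snap91, because their Col4a3-/- means were under the level of 5.21.

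Cyp2d22, a cytochrome P450 of the family that metabolises many drugs, stood at 6.58, 6.77 and 6.53 in Col4a3-/- hearts and at 7.82, 7.88 and 7.96 in Col4a3-/-OPN-/- hearts. The wild type hearts, at 7.10, 7.64 and 7.28, lay between the knockout groups. Its rise was 2.39-fold (log2 difference 1.26, SE 0.16, adjusted p = 0.0305 in limma). Snap91 encodes AP180, an adaptor for clathrin coats best known from synapses. Its Col4a3-/- hearts were at 4.84, 5.16 and 5.18, its Col4a3-/-OPN-/- hearts at 6.35, 6.11 and 6.70, and its wild type hearts, at 5.42, 5.86 and 5.58, again between them (log2 difference 1.33, SE 0.17, adjusted p = 0.0317 in limma).

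Pm20d1 encodes a secreted enzyme that joins fatty acids to amino acids. It had 6.02, 5.93 and 5.93 in Col4a3-/- hearts against 6.87, 6.99 and 6.70 in Col4a3-/-OPN-/- hearts, with wild type hearts at 6.51, 6.33 and 6.38. Cilp, a matrix protein made by cardiac fibroblasts, had 5.87, 5.56 and 5.42 against 6.57, 6.95 and 6.97, with wild type hearts at 6.30, 6.12 and 5.87, of which the lowest reached the highest Col4a3-/- heart. Pm20d1 rose 1.86-fold (log2 difference 0.89, SE 0.12, adjusted p = 0.048 in limma) and Cilp 2.32-fold (log2 difference 1.21, SE 0.17, adjusted p = 0.0482 in limma). For every one of these genes the mean of the Col4a3-/- hearts was below that of wild type, by -1.07 for Myh11, -0.71 for Cyp2d22, -0.56 for Snap91, -0.48 for Cilp, -0.45 for Pm20d1 and -0.22 for Ppbp, while Col4a3-/-OPN-/- hearts were above wild type by 0.21, 0.55, 0.77, 0.73, 0.45 and 1.34 in the same order. These contrasts share hearts with the main one and are given only as levels.

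**Figure D1:**
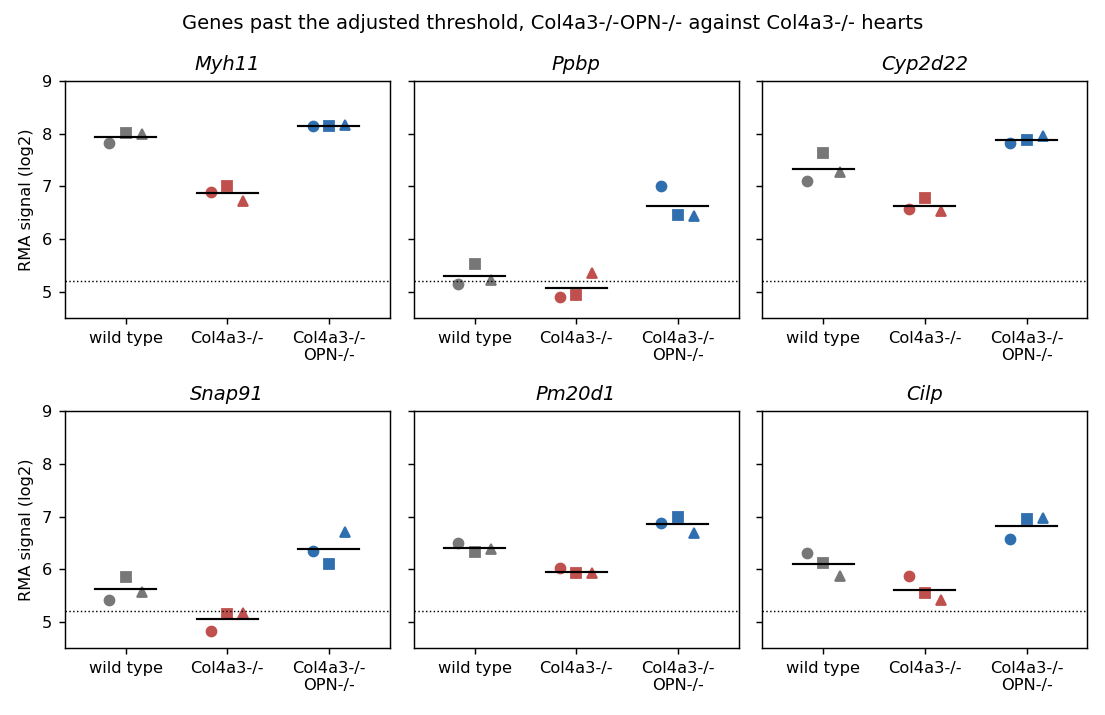
Log2 signal of the 6 genes past the adjusted threshold in each of the 9 hearts, by genotype; marker shapes give the replicate number and the dotted line marks 5.21, the level needed for testing. In each panel the Col4a3-/-OPN-/- hearts stand above the Col4a3-/- hearts without overlap. The Col4a3-/- means of Ppbp and Snap91 lie under the dotted line, although Col4a3-/- replicate 3 is above it for Ppbp.

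Because the groups did not overlap, the 6 genes had to keep their direction among hearts of high and of low Xist signal. Only the sizes could differ there. Myh11 differed by 1.33 and 1.15 in these strata, Ppbp by 1.33 and 1.77, Cyp2d22 by 1.33 and 1.12, Snap91 by 1.10 and 1.37, Pm20d1 by 1.02 and 0.85, and Cilp by 1.30 and 1.22. With the Y-linked signal of each heart as a covariate, none of the 6 passed the adjusted threshold. The count of calls was less steady than the sizes: it was 22 without Col4a3-/- replicate 2, 11 without Col4a3-/- replicate 1, 2 without Col4a3-/- replicate 3, 0 without Col4a3-/-OPN-/- replicate 1, 1 without wild type replicate 3 (which lends its spread to the fit), and 6 again, of which 3 were lower, without Col4a3-/-OPN-/- replicate 3. The 22 were probe sets, and several of them belonged to the single gene Syne1. Over the 24 or 25 alternative settings in which each was tested, Myh11 lost its call in 5 (highest adjusted p 0.0952), Ppbp in 8 (0.129), Cyp2d22 in 11 (0.222), Snap91 in 13 (0.251), Cilp in 19 (0.222) and Pm20d1 in 20 (0.22). Myh11 kept its call when any heart except Col4a3-/-OPN-/- replicate 1 was left out.

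Just outside the threshold stood genes of several kinds. Bcat2, the mitochondrial aminotransferase that starts the breakdown of leucine, isoleucine and valine, came closest. It had 9.01, 8.84 and 9.25 in Col4a3-/- hearts, 7.81, 8.09 and 7.89 in Col4a3-/-OPN-/- hearts and 8.86, 8.39 and 8.61 in wild type hearts. The Col4a3-/-OPN-/- hearts were thus the lowest of the 9 (log2 difference -1.10, SE 0.16, adjusted p = 0.0568 in limma). Bcat2 passed the threshold after renewed quantile normalization (adjusted p = 0.0492), with robust eBayes (adjusted p = 0.0487) and without Col4a3-/- replicate 2 (adjusted p = 0.0452).

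Ndrg4, a cytoplasmic protein of brain and heart, had the largest difference among genes at an adjusted p of 0.0888. Its hearts read 8.12, 7.89 and 7.08 in Col4a3-/-, 8.98, 9.64 and 9.26 in Col4a3-/-OPN-/- and 8.27, 8.69 and 8.07 in wild type. All Col4a3-/-OPN-/- hearts were above all others (log2 difference 1.60, SE 0.27). Homer2, a scaffold that links calcium channels and receptors, read 7.31, 7.38 and 6.99 against 8.42, 8.18 and 8.08, with wild type hearts at 7.66, 7.66 and 8.02. Slf1, a DNA repair factor (0.74), the lipid transporter Abca12 (0.67) and the zinc finger gene Zfp235 (0.67) had smaller differences at the same adjusted p. On the low side were Trappc6a, a subunit of a vesicle tethering complex (-0.87, adjusted p = 0.0888 in limma), and Slc30a2, a zinc exporter (-0.57, adjusted p = 0.114 in limma).

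In some genes with large differences, single hearts stood apart by several log2 units. Il15, a cytokine that maintains lymphocytes, stood at 6.39, 5.54 and 5.09 in Col4a3-/- hearts and at 7.71, 8.44 and 7.33 in Col4a3-/-OPN-/- hearts (log2 difference 2.15, adjusted p = 0.124 in limma). Its wild type hearts, at 6.41, 7.47 and 6.19, overlapped both groups. Gdpd3, an enzyme that acts on lysophospholipids, stood at 8.93, 8.28 and 9.19 against 5.36, 5.85 and 8.08, so 2 Col4a3-/-OPN-/- hearts were far below the rest and replicate 3 was not. The ribosomal protein gene Rpl3 had the same 2 hearts low, at 7.17 and 7.54 beside 8.87 in replicate 3, with Col4a3-/- hearts at 9.26, 9.06 and 9.17. Their adjusted p-values were 0.156 and 0.196 in limma.

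Counts over gene groups use a weaker mark, an unadjusted p under 0.05, and are read against the same count over all genes. At that mark 1131 genes (8.64%) were higher and 605 (4.62%) lower in Col4a3-/-OPN-/- hearts, and the groups did not overlap in 1343 genes upward (10.3%) and in 803 downward (6.14%). The median difference of all genes was 0.05 log2 units. Of the genes under the mark, 65.2% were higher as deposited, 58.7% after a renewed quantile normalization and 81.1% after centring each array, so a small excess of higher genes in a group is not read here.

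Genes of the vessel wall lay above that background. Of 25 smooth muscle contractile genes, 10 were higher at an unadjusted p under 0.05 and none was lower, with a median difference of 0.36. Beside Myh11 these held Cnn1 (calponin), at 5.83, 6.05 and 5.64 in Col4a3-/- hearts and 6.65, 6.55 and 7.46 in Col4a3-/-OPN-/- hearts. Tagln, an actin-binding protein of smooth muscle, stood at 6.87, 6.67 and 6.31 against 7.36, 7.40 and 7.35. The groups did not overlap in either gene (differences 1.05 and 0.76, adjusted p = 0.141 and 0.131 in limma), and wild type hearts were above the Col4a3-/-OPN-/- hearts for Tagln, at 7.54, 7.52 and 7.46. The other members under the mark were Itga8 (0.77), Kcnmb1 (0.69), Notch3 (0.60), Tpm2 (0.59), Ppp1r12b (0.52), Synpo2 (0.44) and Cald1 (0.36).

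Pericytes wrap capillaries and regulate their flow. Of 14 pericyte identity genes, 9 were higher at that mark and none lower, with a median of 0.45, and every member had a positive difference. Rgs5, a brake on G protein signalling that is abundant in these cells, read 11.11, 11.04 and 10.91 in Col4a3-/- hearts and 11.33, 11.44 and 11.32 in Col4a3-/-OPN-/- hearts. Its wild type hearts, at 11.32, 11.40 and 11.45, overlapped the latter and not the former. Pdgfrb, the receptor that recruits pericytes, read 8.14, 8.12 and 8.46 against 8.94, 8.94 and 8.52, without overlap (0.55). Kcnj8, the pore of the vascular KATP channel, read 8.25, 7.28 and 7.36 against 8.19, 8.40 and 8.34, so Col4a3-/- replicate 1 lay within the other group.

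The size of these shifts depended on which Col4a3-/- heart was kept. The smooth muscle median was 0.14 without Col4a3-/- replicate 3 and 0.49 without Col4a3-/- replicate 2, with 9 to 13 members higher at the mark over all single hearts left out; the pericyte median ran from 0.31 without Col4a3-/- replicate 3 to 0.58 without Col4a3-/-OPN-/- replicate 3. Relative to the wild type mean, the smooth muscle medians of single hearts were -0.49, -0.14 and -0.43 for the Col4a3-/- hearts and -0.15, -0.04 and -0.11 for the Col4a3-/-OPN-/- hearts. All 6 were under the wild type mean, and Col4a3-/- replicate 2 lay as high as Col4a3-/-OPN-/- replicate 1.

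**Figure D2:**
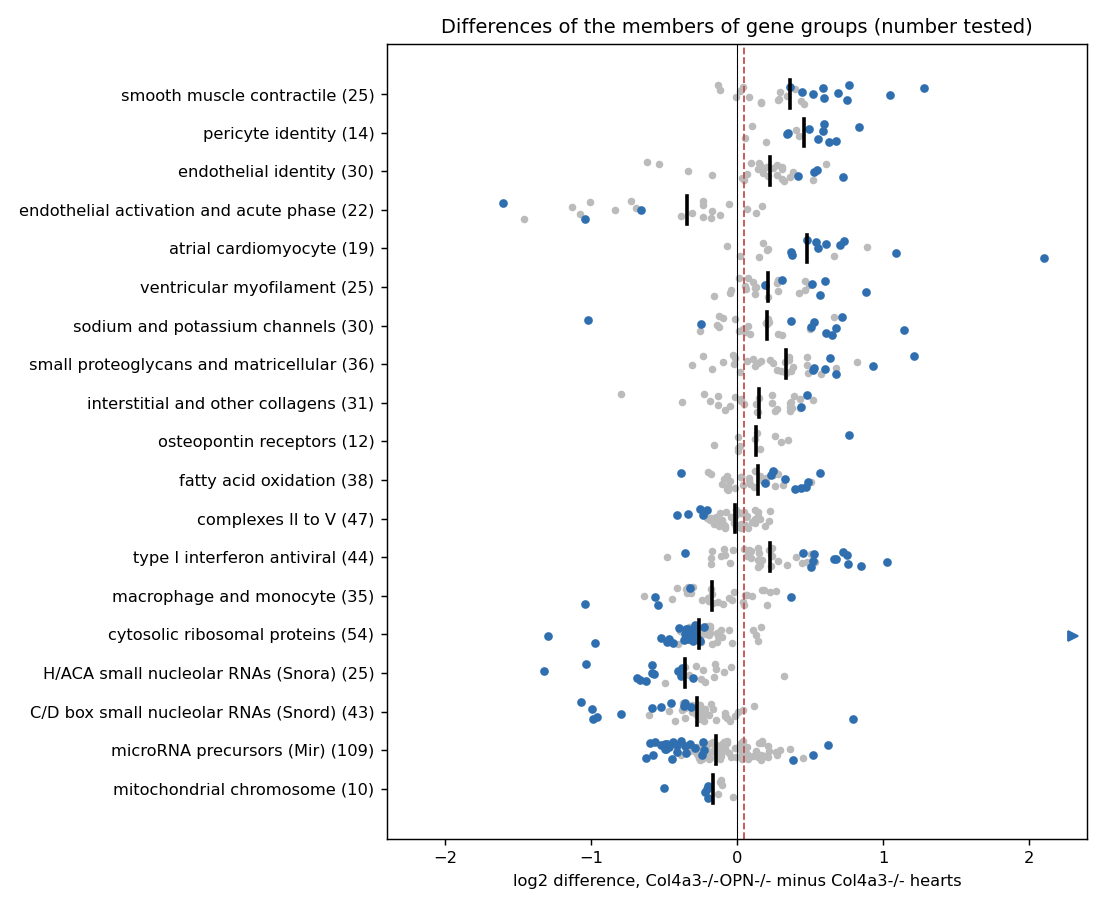
Log2 difference of each tested member of 19 gene groups, with members at an unadjusted p under 0.05 in blue, the others in grey, group medians as black bars and the median of all genes (0.05) as a dashed red line; the arrow stands for Rps13, at 3.39. Smooth muscle, pericyte and atrial members lie mostly to the right of the dashed line, and ribosomal protein and small nucleolar RNA members to its left.

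Endothelial genes are given as a list of identity and one of activation. Of 30 endothelial identity genes, 4 were higher and none lower (median 0.23): the phosphatase Ptprb (0.73), the receptor Ephb4 (0.54), the transcription factor Sox17 (0.53) and the junction protein Cdh5 (0.42). The higher count was 8, 7 and 9 without Col4a3-/- replicate 2, Col4a3-/- replicate 3 and Col4a3-/-OPN-/- replicate 3, and 2 without Col4a3-/-OPN-/- replicate 2. Of 22 genes that endothelium turns on in inflammation or that belong to the acute phase, none was higher and 3 were lower (median -0.35), namely the haptoglobin gene Hp (-1.60), the endotoxin co-receptor Cd14 (-1.05) and Socs3, an inhibitor of cytokine signalling (-0.66). Hp read 6.72, 10.10 and 7.91 in Col4a3-/- hearts and 6.83, 6.16 and 6.92 in Col4a3-/-OPN-/- hearts, and Cd14 read 6.50, 6.84 and 8.46 against 6.24, 6.33 and 6.08. The high values were those of Col4a3-/- replicates 2 and 3. In Col4a3-/- replicate 2 the median of fat genes was also 1.02 above the wild type mean. In Col4a3-/- replicate 3 that of liver genes was 1.03 above it. The part of these tissues in Hp and the other members was not tested. The list's median was -0.74, with 13 members lower, without Col4a3-/- replicate 1, and -0.14 without Col4a3-/- replicate 3.

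**Figure D3:**
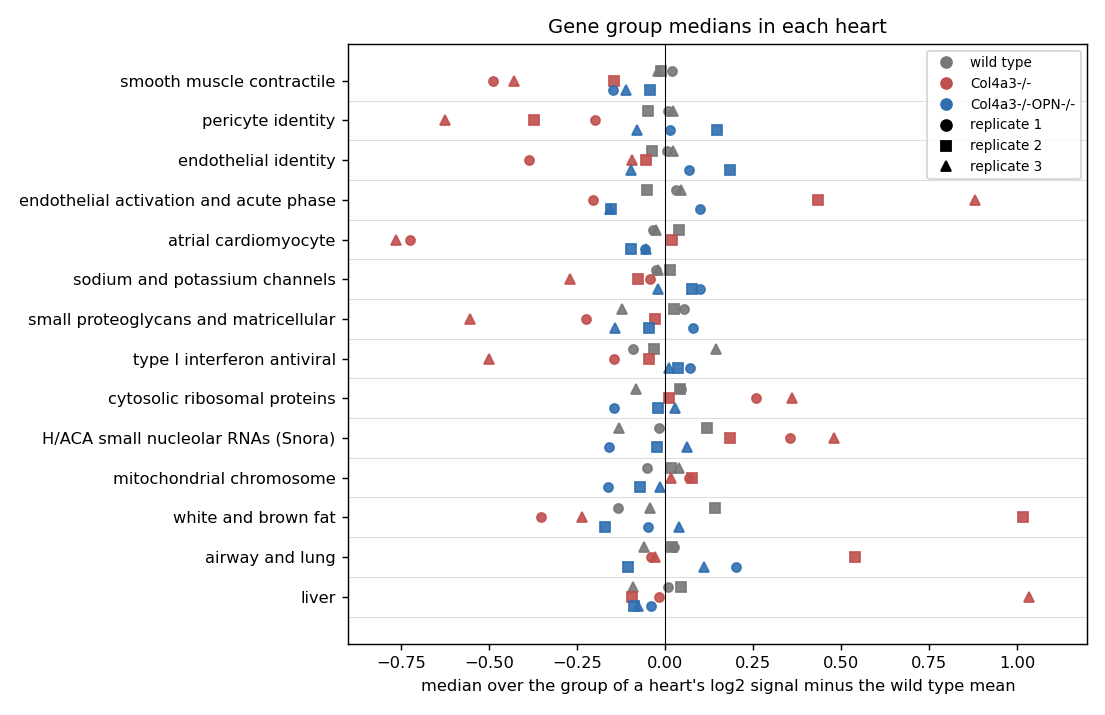
Median over the members of a gene group of each heart's log2 signal minus the wild type mean, with colour for genotype and marker shape for replicate. Col4a3-/- hearts are spread widely, with replicates 1 and 3 low for atrial genes, replicate 2 high for fat and airway genes and replicate 3 high for liver genes, while Col4a3-/-OPN-/- hearts lie close to wild type.

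Markers of the atrium separated 2 of the Col4a3-/- hearts from the other 7. Of 19 atrial cardiomyocyte genes, 10 were higher in Col4a3-/-OPN-/- hearts at the mark and none was lower (median 0.48). Bmp10, a growth factor of the atria, read 5.72, 9.17 and 7.40 in Col4a3-/- hearts and 9.38, 9.63 and 9.59 in Col4a3-/-OPN-/- hearts. Mybphl, an atrial myosin-binding protein, read 6.63, 8.47 and 5.66 against 8.70, 8.60 and 8.84. In both, Col4a3-/- replicate 2 was near the Col4a3-/-OPN-/- hearts and replicates 1 and 3 were far below them; within hearts of low Xist signal, where replicate 2 is the Col4a3-/- heart, the differences were 0.31 and 0.30. Nppa, the atrial natriuretic peptide, had a difference of 0.38. The median of the atrial list ran from 0.34 without Col4a3-/- replicate 3 to 0.65 without Col4a3-/- replicate 2, and 6 members were higher without either Col4a3-/- replicate 3 or Col4a3-/-OPN-/- replicate 2.

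How much atrium each sample held is not given in the labels. With the atrial signal of each heart as a covariate the smooth muscle median was 0.25 with 6 members higher and 1 lower, and none of the 6 called genes passed the adjusted threshold, although their differences were close to those without it: 1.16 for Myh11, 1.65 for Ppbp, 1.08 for Cyp2d22, 1.16 for Snap91, 0.94 for Pm20d1 and 1.28 for Cilp. The atrial signal was the mean of Bmp10, Sln, Myl4, Myl7 and Nppa, which are atrial markers like the members of the atrial list. The list itself then had a median of 0.01, which this choice made likely in advance and which is no check of the covariate.

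Among ventricular myofilament genes 6 of 25 were higher at the mark and none lower (median 0.21), with the titin-binding Ankrd1 (0.88), Myom1 of the M band (0.60) and Ldb3 of the Z disc (0.56) at the top, and 10 were higher without Col4a3-/- replicate 2. Calcium cycling genes had 3 of 27 higher, among them the T-type calcium channel gene Cacna1g (0.86), with a median of 0.19, and 5 higher without Col4a3-/- replicate 2. Of 20 fetal and stress isoforms, 3 were higher (Ankrd1, Flnc and Nppa), with a median of 0.32 that was 0.18 without Col4a3-/- replicate 1, and the count was 6 without Col4a3-/- replicate 2 but 1 when Col4a3-/-OPN-/- replicate 1 was left out.

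Of 30 chosen sodium and potassium channel genes, 8 were higher and 2 lower (median 0.20, and 0.12 without Col4a3-/- replicate 3), whereas all 47 tested genes with a Kcn name gave 8 higher and 5 lower with a median of -0.02. Among the chosen genes the largest difference was in a gene of the KATP channel, which opens when ATP is short. Kcnj11, its pore Kir6.2, read 6.83, 7.17 and 6.58 in Col4a3-/- hearts, 8.20, 7.97 and 7.84 in Col4a3-/-OPN-/- hearts and 7.19, 7.42 and 7.77 in wild type hearts. Abcc8, the regulatory subunit SUR1 of atrial myocytes, read 7.80, 7.85 and 7.57 against 8.45, 8.38 and 8.35, with wild type hearts at 7.97, 8.40 and 8.09. In both genes the Col4a3-/-OPN-/- hearts were above all Col4a3-/- hearts (differences 1.14 and 0.65, adjusted p = 0.0888 and 0.154 in limma). Kcnj11 differed by 1.26 among hearts of high and by 0.85 among hearts of low Xist signal, and Abcc8 by 0.69 and 0.55. The signs of these differences were fixed by the lack of overlap. The sodium channel subunit gene Scn4b (0.72) and Kcnq1, the pore of the slow delayed rectifier (0.52), were also higher at the mark, while Kcne1, the partner subunit of Kcnq1, read 7.79, 7.11 and 6.08 against 6.06, 6.30 and 5.56 and overlapped (-1.02).

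Syne1 encodes nesprin-1, a giant protein that ties the nuclear envelope to the cytoskeleton in muscle. The array reads it with 56 probe sets above the filter, all of which had a positive difference, with a median of 0.38 and a range from 0.03 to 1.66, and 23 of which were under the mark. The probe set with the smallest p read 4.87, 5.06 and 4.85 in Col4a3-/- hearts and 6.53, 5.94 and 5.67 in Col4a3-/-OPN-/- hearts (difference 1.12, adjusted p = 0.0888 in limma). The last 14 probe sets by identifier had a median of 0.91 and the 42 before them a median of 0.32, a split that was chosen after the values were seen. In the probe set with the largest difference, Col4a3-/- replicate 2 stood at 6.89 beside 5.97 and 5.38 in replicates 1 and 3, and Col4a3-/-OPN-/- hearts at 8.11, 7.69 and 7.42. Probe sets of 1 gene are not replicates of it.

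**Figure D4:**
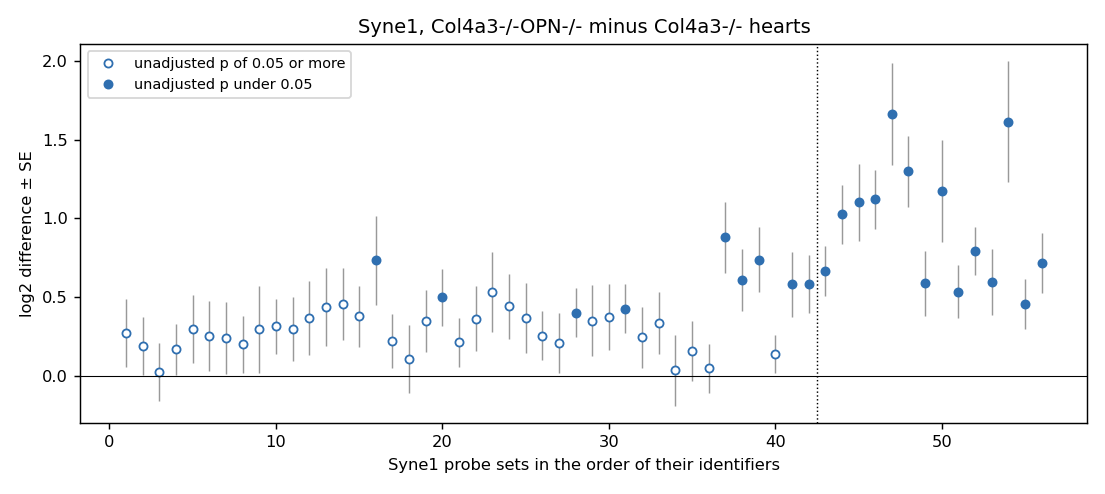
Log2 difference ± SE from the fit for the 56 Syne1 probe sets in the order of their identifiers, filled where the unadjusted p was under 0.05; the dotted line precedes the last 14. All points are above 0, and the filled points gather at the right, where differences reach 1.66.

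Matrix genes are given by kind, and no test compared the kinds with each other. No tested type IV collagen chain gene was under the mark in either direction, and none of 9 laminin chain genes was, with a median of 0.32 that ran from 0.15 without Col4a3-/- replicate 3 to 0.54, with 4 higher, without Col4a3-/- replicate 2. Of 23 genes of nidogens and basement membrane proteoglycans, 6 were higher and 1 lower (median 0.18). Fbln2, a fibulin that bridges laminins and elastic fibres, led them with 7.47, 7.98 and 7.31 in Col4a3-/- hearts and 8.45, 8.49 and 8.36 in Col4a3-/-OPN-/- hearts, without overlap (0.84, adjusted p = 0.141 in limma). Nid1 (0.31), Nid2 (0.42), agrin (Agrn, 0.47) and syndecan 2 (Sdc2, 0.52) had positive differences, and syndecan 4 (Sdc4, -0.69) a negative one. The higher count was 2 without Col4a3-/-OPN-/- replicate 1 and 3 without Col4a3-/-OPN-/- replicate 2.

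Of 36 small proteoglycan and matricellular genes, 7 were higher and none lower, with a median of 0.33. They were Cilp, Ecm2 (0.93), tenascin X (Tnxb, 0.68), podocan (Podn, 0.63, but -0.0925 with the atrial covariate), fibromodulin (Fmod, 0.60), Sparcl1 (0.53) and Comp (0.52). Without Col4a3-/- replicate 3 the median was 0.09 with 3 higher, and without Col4a3-/- replicate 2 it was 0.52 with 13 higher, and the higher count was 3 without Col4a3-/-OPN-/- replicate 2 and 4 without Col4a3-/-OPN-/- replicate 3. Ecm2, a matrix protein related to decorin, was low in Col4a3-/- replicate 3 above all: it read 7.76, 7.63 and 6.11 in Col4a3-/- hearts and 8.02, 8.17 and 8.10 in Col4a3-/-OPN-/- hearts. Among 31 interstitial and other collagen genes, 2 collagen-modifying enzymes (Plod1, 0.44, and Plod2, 0.48) were higher and no collagen chain was, and the median of 0.15 was -0.06 without Col4a3-/- replicate 3 and 0.41, with 8 higher, without Col4a3-/- replicate 2.

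Where 8.64% of all genes were higher at the mark, the receptors that osteopontin uses gave no larger a share, 1 member of 12. That was Itga8, whose alpha-8 chain binds RGD ligands and is abundant in smooth muscle, at 6.03, 6.13 and 5.53 in Col4a3-/- hearts, 6.68, 6.84 and 6.47 in Col4a3-/-OPN-/- hearts and 6.93, 6.77 and 6.96 in wild type hearts (0.77, adjusted p = 0.156 in limma). The other receptor genes differed by 0.34 (Itgb6), 0.30 (Itga9), 0.26 (Itgb8), 0.15 (Itgav), 0.13 (Itgb5), 0.12 (Itga4) and -0.16 (Itgb3), and Itga5, Cd44, Itgb1 and Itgb7 lay within 0.02 of 0. The sign of Itga5 turned under renewed quantile normalization. Of 25 integrin adhesion genes, Itga1 (0.76) and vinculin (Vcl, 0.50) were higher at the mark.

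TGF-beta, the growth factor family that drives scar formation, showed no common direction. Of 38 ligands, receptors and responses, 3 were higher (Tgfb3, 0.57, Ltbp4, 0.47, and Bmp6, 0.39) and 3 lower (Inhbb, -0.46, Tgfbr1, -0.38, and Inhba, -0.27). The median was 0.05 as deposited and -0.02 after renewed quantile normalization, and -0.11, with 5 lower and 1 higher, without Col4a3-/- replicate 1. Of 30 fibroblast identity and activation genes, 4 were higher (Cilp, Meox1, Comp and Gsn) and none lower (median 0.25, and 0.03 with 2 higher and 3 lower without Col4a3-/- replicate 3), and 11 were higher without Col4a3-/- replicate 2.

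The title of the series names mitochondria, so their genes are given by function. Of 46 complex I genes 3 were higher and 2 lower (median 0.03), with 9 higher and a median of 0.11 without Col4a3-/- replicate 1 and 1 higher and a median of -0.08 without Col4a3-/- replicate 3. With all hearts, neither share of complex I genes exceeded that of all genes. Of 47 genes of complexes II to V none was higher and 5 were lower, with a median of -0.02 that was 0.03 after centring the arrays. The 5 were the small subunits Cox7b (-0.41), Uqcr11 (-0.34), Cox6a1 (-0.26), Atp5g2 (-0.23) and Cox8a (-0.21), and without Col4a3-/- replicate 1 no member was lower and the median was 0.08, while 7 were lower without Col4a3-/- replicate 3, 3 without Col4a3-/- replicate 2, 2 without Col4a3-/-OPN-/- replicate 3 and 0 when Col4a3-/-OPN-/- replicate 1 was left out. Of 10 genes of the mitochondrial chromosome, none was higher and 5 were lower, with a median of -0.17. COX1, a core subunit of cytochrome oxidase, read 13.32, 13.31 and 13.26 in Col4a3-/- hearts and 12.99, 13.15 and 13.16 in Col4a3-/-OPN-/- hearts, and ND6 of complex I read 10.61, 10.35 and 10.09 against 9.79, 9.86 and 9.89. The groups did not overlap in either, but after renewed quantile normalization 1 of the 10 genes was under the mark, with a median of -0.06, and 2 were without Col4a3-/-OPN-/- replicate 1.

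Fatty acid oxidation, the main source of energy in the heart, had 9 of 38 genes higher and 1 lower (median 0.14). Acadvl, which oxidises very long chains, differed little but evenly: it read 10.18, 10.14 and 10.17 in Col4a3-/- hearts, 10.45, 10.51 and 10.52 in Col4a3-/-OPN-/- hearts and 10.38, 10.36 and 10.36 in wild type hearts (0.32, adjusted p = 0.198 in limma). The trifunctional protein genes Hadha (0.23) and Hadhb (0.48), the carnitine transferase genes Cpt1a (0.47) and Crat (0.25), and the fatty acid transporter gene Slc27a1 (0.57) were among the others, and Acad10 (-0.39) was the lower one. The count of higher members was 4 without Col4a3-/-OPN-/- replicate 3 and 7 to 9 without any other single heart.

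Around Bcat2, the breakdown of branched-chain amino acids had 4 of 28 genes higher and 2 lower (median 0.12). The later steps Mccc1 (0.91), Abat (0.55), Ivd (0.44) and Acat1 (0.39) had positive differences and Bckdhb, a subunit of the branched-chain ketoacid dehydrogenase, a negative one (-0.43). In the tricarboxylic acid cycle 3 of 38 were higher, and 9 without Col4a3-/- replicate 1: Idh2 (0.33), the phosphatase Pdp2 (0.33) and Ogdhl were the 3. With all hearts, the share of this list was under the 8.64% of all genes that were higher. Ogdhl, a homologue of the oxoglutarate dehydrogenase subunit, read 4.82, 4.58 and 5.09 in Col4a3-/- hearts, 8.37, 6.95 and 7.58 in Col4a3-/-OPN-/- hearts, and 5.06, 7.45 and 7.14 in wild type hearts. Wild type replicate 1 was thus as low as the Col4a3-/- hearts (difference 2.80, adjusted p = 0.127 in limma). Ogdhl passed the threshold without that heart (adjusted p = 0.0188) and with only the 6 arrays compared (adjusted p = 0.0453). Of 40 antioxidant genes, 1 was higher and 3 lower: Gpx1 (-0.43), Txn1 (-0.45) and Cyba (-0.42), with a median of -0.04 that was 0.01 after centring.

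Macrophage, chemokine and immediate early genes under the mark were mostly lower. Other immune lists did not share a direction. Of 24 antigen presentation genes, 3 were higher and 1 lower, and of 31 complement and coagulation genes, 2 were higher and 1 lower. Of 10 lymphocyte genes, none was higher and 1 was lower, and none of 7 neutrophil genes was under the mark. Of 35 macrophage and monocyte genes, 1 was higher and 4 lower (median -0.18), and 10 were lower without Col4a3-/- replicate 1 but 2 when Col4a3-/-OPN-/- replicate 3 was left out. Tyrobp, a signalling adaptor of myeloid cells, read 6.86, 6.80 and 6.94 in Col4a3-/- hearts, 6.56, 6.23 and 6.17 in Col4a3-/-OPN-/- hearts and 6.34, 6.55 and 6.44 in wild type hearts, and its partner Fcer1g differed by -0.56. Among 28 chemokines and their receptors, 1 was higher (Ppbp) and 4 were lower (Ccl2, Ccl9, Ccl4 and Ackr2), with a median of -0.08. Ccl2, which draws monocytes, read 5.79, 6.81 and 6.48 against 5.57, 5.57 and 5.04 (-0.97, adjusted p = 0.177 in limma). Of 32 immediate early genes, none was higher and 4 were lower (Nr4a1, -0.92, Junb, -0.77, Dusp1, -0.65, and Nr4a2, -0.41), with a median that ran from -0.46, with 10 lower, without Col4a3-/- replicate 1 to -0.09, with 2 higher and 0 lower, without Col4a3-/- replicate 3. The lower count was 2 without Col4a3-/- replicate 2 and also without Col4a3-/-OPN-/- replicate 1, and it was 0 when Col4a3-/-OPN-/- replicate 3 was left out.

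Interferon-stimulated genes lay on the higher side. Of 44 type I interferon genes, 11 were higher and 1 lower (median 0.22), and of 12 guanylate-binding and immunity-related GTPases 3 were higher and 1 lower (median 0.30). Rsad2, the antiviral enzyme viperin, read 5.80, 5.63 and 5.60 in Col4a3-/- hearts, 6.53, 6.32 and 6.35 in Col4a3-/-OPN-/- hearts and 6.33, 6.44 and 6.74 in wild type hearts. Gbp7, a GTPase of cell-autonomous defence, read 6.43, 6.36 and 5.81 against 6.94, 7.20 and 7.25, with wild type hearts at 6.96, 6.98 and 7.47. In both, Col4a3-/- hearts were the low ones and Col4a3-/-OPN-/- hearts were near wild type (differences 0.72 and 0.93, adjusted p = 0.124 and 0.144 in limma). Ifit2 (1.03), Oasl2 (0.85), Phf11d (0.76), Bst2 (0.75) and Ifih1 (0.66) were among the other members under the mark. Without Col4a3-/- replicate 3 the type I interferon median was 0.07, with 7 higher.

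Interferon acts on such genes through a response element in the promoter. To show what these promoters hold, the letters GAAANNGAAA were searched on both strands (TTTCNNTTTC on the other; overlapping matches counted) in 300 bases, 250 before to 50 after each start, of RefSeq on build GRCm38.p6. Of all 32851 such promoters, 1131 (3.44%) held them. Of the 14 members higher at the mark, 12 had a promoter in the table and 5 of those held the letters: Bst2, Gbp3, Gbp7, Ifih1 and Rsad2. The 3.44% counts promoters, while the 5 counts genes with a match in any promoter. Members that were not higher were not counted apart, so the search says nothing about the rise. The promoters of the genes with the largest differences among the 5 are printed 5′ to 3′ on the strand of the gene, with the matches in capitals. They lie at chr12:26456403-26456702 (minus strand, Rsad2), chr3:142530086-142530385 (plus strand, Gbp7) and chr8:71537423-71537722 (minus strand, Bst2).
Rsad2: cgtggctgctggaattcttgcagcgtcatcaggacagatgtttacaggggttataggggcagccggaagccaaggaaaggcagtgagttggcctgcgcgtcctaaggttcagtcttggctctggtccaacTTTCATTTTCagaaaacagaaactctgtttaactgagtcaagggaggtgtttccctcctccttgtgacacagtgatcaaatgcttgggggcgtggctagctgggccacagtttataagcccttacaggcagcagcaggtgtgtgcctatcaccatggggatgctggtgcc
Gbp7: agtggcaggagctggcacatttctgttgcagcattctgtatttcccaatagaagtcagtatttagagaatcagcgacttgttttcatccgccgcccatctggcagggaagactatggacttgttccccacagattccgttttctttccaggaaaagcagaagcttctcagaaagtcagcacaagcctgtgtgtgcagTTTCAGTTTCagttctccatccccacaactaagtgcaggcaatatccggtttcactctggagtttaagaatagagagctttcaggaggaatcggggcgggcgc
Bst2: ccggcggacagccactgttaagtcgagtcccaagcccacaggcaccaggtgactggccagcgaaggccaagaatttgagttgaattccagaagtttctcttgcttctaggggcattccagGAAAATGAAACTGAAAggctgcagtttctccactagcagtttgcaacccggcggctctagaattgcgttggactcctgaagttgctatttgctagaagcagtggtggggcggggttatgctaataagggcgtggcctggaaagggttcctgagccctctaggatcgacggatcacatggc
Bst2 held 2 overlapping matches, and Rsad2 and Gbp7 held 1 each in the reverse orientation. A match describes the letters of this window only.

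Platelet genes did not follow Ppbp as a group. Of 19, 3 were higher and none lower, with a median of 0.00 after rounding. Gp9, a subunit of the platelet receptor for von Willebrand factor, read 5.90, 5.46 and 5.51 in Col4a3-/- hearts and 6.54, 6.65 and 6.38 in Col4a3-/-OPN-/- hearts (0.90, adjusted p = 0.0888 in limma), and the ADP receptor P2ry12 differed by 0.51. Pf4 (-0.02), which is stored in the same granules as Ppbp, and the integrin chain Itga2b (-0.11) differed by less than their errors.

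Genes of ribosomes and small RNAs lay on the lower side. Of 54 cytosolic ribosomal protein genes, 1 was higher and 23 were lower, with a median of -0.26 (-0.24 after renewed quantile normalization, with 19 lower, and -0.22 after centring, with 14 lower). It was -0.20 with 12 lower with the Y-linked covariate, -0.19 with 10 lower with array weights, and -0.12 with 2 lower with the atrial covariate. Ribosomal protein genes have near-identical copies in the genome, so their probe sets can share signal. Most differences were small, such as Rps6 (-0.23) and Rps19 (-0.47), with Rpl3 (-1.30) and Rps3a1 (-0.98) at the low end. Rps13 was the exception: it read 4.95, 4.93 and 4.98 in Col4a3-/- hearts and 7.92, 8.54 and 8.55 in Col4a3-/-OPN-/- hearts, while wild type hearts had 4.65, 7.77 and 7.56 (difference 3.39, adjusted p = 0.124 in limma). Its adjusted p was 0.00055 with only the 6 arrays compared and 8.03e-05 without wild type replicate 1, so in these fits Rps13 passed the threshold. Relative to the wild type mean the list medians were 0.26, 0.01 and 0.36 for the Col4a3-/- hearts and -0.15, -0.02 and 0.03 for the Col4a3-/-OPN-/- hearts. The lower count was 37 without Col4a3-/- replicate 2, 12 and 13 without Col4a3-/- replicate 1 and Col4a3-/- replicate 3, and 11 and 15 without Col4a3-/-OPN-/- replicate 1 and Col4a3-/-OPN-/- replicate 2.

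Small nucleolar RNAs guide the chemical modification of ribosomal RNA. Of 25 of the H/ACA class, none was higher and 12 were lower (median -0.36), led by Snora75 (-1.32), Snora74a (-1.04) and Snora20 (-0.69). Of 43 of the C/D box class, 1 was higher and 11 were lower (median -0.27), led by Snord53 (-1.07), Snord83b (-0.997) and Snord49a (-0.99), with Snord123 (0.79) the higher one. The lower count of the C/D box class was 27 without Col4a3-/- replicate 2, 5 without Col4a3-/- replicate 1, 6 without Col4a3-/- replicate 3 and, with Col4a3-/-OPN-/- replicate 1 left out, 4. With the atrial signal as a covariate it was 1, with a median of -0.01, and that of the H/ACA class was 2, with a median of -0.32.

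Of 109 microRNA precursor genes, 3 were higher and 22 lower (median -0.14). Mir210, the precursor of the microRNA best known for its induction by low oxygen, read 7.33, 7.31 and 7.01 in Col4a3-/- hearts, 6.70, 6.44 and 6.62 in Col4a3-/-OPN-/- hearts and 6.95, 6.63 and 7.15 in wild type hearts, without overlap between the knockout groups (-0.63, adjusted p = 0.18 in limma). Mir124a-2 (-0.57) had the smallest p of the class. Mir344d-2 (-0.58), Mir375 (-0.49), Mir760 (-0.36) and Mir673 (-0.52) came next after Mir210, all without overlap between the knockout groups. Without Col4a3-/-OPN-/- replicate 1 the lower count was 13. Of the 22, 20 had mature sequences in the table of RefSeq on build GRCm38.p6, 36 in all with 36 different seeds, so none shared a seed with another. To show that the listed sequences have no seed in common, those of Mir210 and the 4 named after it are printed 5′ to 3′ with the seed, bases 2 to 8, in capitals. Mir375 had only its 5p sequence listed, so any other mature sequence of it is not covered. Whether the array reads precursors, host transcripts or mature forms is not given in the sources used here.
miR-210-3p: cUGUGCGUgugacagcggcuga
miR-210-5p: aGCCACUGcccaccgcacacug
miR-344d-3p: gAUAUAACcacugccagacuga
miR-344d-2-5p: aGUCUGGUugcuggcuauauucca
miR-673-5p: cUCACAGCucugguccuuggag
miR-673-3p: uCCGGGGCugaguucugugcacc
miR-375-5p: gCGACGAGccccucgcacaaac
miR-760-3p: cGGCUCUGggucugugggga
miR-760-5p: cCCCUCAGgccaccagagcccgg

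The direction of a gene went with its span on the chromosome. When genes were sorted by span into 5 bins of 2604, the median difference was -0.07 in the bin of the shortest genes (up to 6.62 kb) and 0.14 in that of the longest (from 67.1 kb), with 0.01, 0.04 and 0.08 between. The share of genes higher at the mark went from 4.30% to 13.7% and the share lower from 11.5% to 1.31%. Ribosomal protein, small nucleolar RNA and microRNA genes are short, and Syne1 is long. The trend was largest in Col4a3-/- replicate 1, whose longest genes stood at -0.14 from the wild type mean, and in Col4a3-/-OPN-/- replicate 1, at 0.16, while the other 4 knockout hearts lay between -0.06 and 0.03. Without these 2 hearts the medians ran from -0.03 to 0.05. Subtracting the trend from each array kept the calls of Myh11, Ppbp and Cyp2d22. It lost those of Snap91, Cilp and Pm20d1, whose differences were 1.21, 1.19 and 0.84 and whose adjusted p-values were 0.0527, 0.0527 and 0.0588 in limma. It gave 774 genes higher and 688 lower at the mark, and brought the lower microRNA precursors from 22 to 9 and the lower ribosomal protein genes from 23 to 14.

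**Figure D5:**
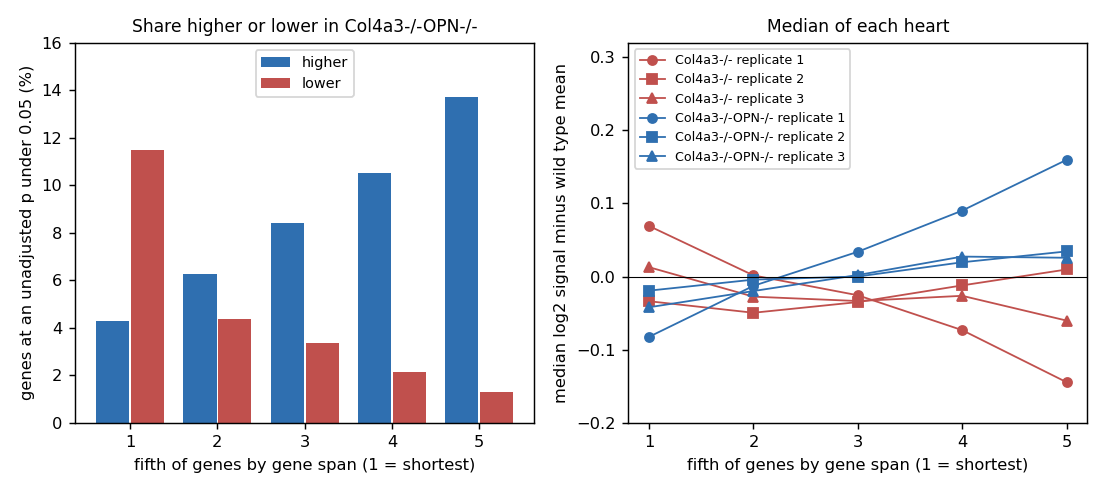
Left, the percentage of genes at an unadjusted p under 0.05 that were higher (blue) or lower (red) in Col4a3-/-OPN-/- hearts, by bin of gene span; right, the median of each knockout heart's log2 signal minus the wild type mean in the same bins. The share of higher genes goes from 4.30% to 13.7%, and the lines of both hearts numbered 1 are the steepest.

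Markers of neighbouring tissues were high in some hearts. The median of 31 white and brown fat genes was 1.02 above the wild type mean in Col4a3-/- replicate 2 and between -0.35 and 0.04 in the other knockout hearts, that of 15 airway and lung genes was 0.54 in Col4a3-/- replicate 2, and that of 10 liver genes was 1.03 in Col4a3-/- replicate 3. Single markers were clearer still: Scgb1a1, the secretory protein of airway epithelium, stood at 12.2 in Col4a3-/- replicate 2 and at 9.81 and 9.52 in Col4a3-/-OPN-/- replicate 1 and Col4a3-/-OPN-/- replicate 3, against at most 6.10 in the other hearts, and Alb, serum albumin of the liver, stood at 10.5 in Col4a3-/- replicate 3 against at most 6.52 elsewhere. The part of these tissue differences in the results above was not tested.

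Genes around Spp1 are given because a deletion can carry flanking sequence of the line it was made in; the extent of such a segment is not given in the labels and was not tested. Of the 30 protein-coding genes listed on each side, 31 were tested; 4 were higher and none lower, with a median of 0.05, the same as that of all genes. The higher count was 7 without Col4a3-/- replicate 2 but 2 without either Col4a3-/-OPN-/- replicate 1 or Col4a3-/-OPN-/- replicate 2. They were Mapk10, a stress-activated kinase of nerve and heart (0.70), Gbp9 (0.59), Sparcl1 (0.53) and Lrrc8c, a subunit of a volume-regulated anion channel (0.33). Mapk10 read 6.82, 6.80 and 6.26 in Col4a3-/- hearts, 7.11, 7.42 and 7.44 in Col4a3-/-OPN-/- hearts and 7.15, 7.16 and 7.45 in wild type hearts. The ranges of the Col4a3-/-OPN-/- and wild type hearts overlapped. Ppbp, past the adjusted threshold above, lies on chromosome 5 like Spp1 but outside the genes listed here.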

How the data were processed

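RNA of 9 hearts was measured on 9 arrays, 3 each of Col4a3-/-OPN-/-, Col4a3-/- and wild type mice. Values are log2 signals per probe set that the authors made with RMA, which corrects background, normalizes across arrays and summarises probes, per the submitters' processing notes; no version is given there. The kit that the labels give for labelling is one for small RNA, yet the values are those of a gene array, so how the RNA was labelled is uncertain. Precision is limited by the number of arrays: the median SE of a log2 difference was 0.149.

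Of 33793 probe sets, 23521 had 1 gene symbol, 1814 several and 8458 were not listed in the platform annotation. Symbols were updated by gene identifier through RefSeq of GRCm38.p6 (13586 of 13650 tested probe sets matched), which also gave spans, RNA classes and neighbours. Probe sets with 1 symbol and a mean above 5.21 entered 1 limma fit of all 9 arrays (lmFit, eBayes with trend; limma 3.58.1, R 4.3.3), with two-sided p-values adjusted by Benjamini-Hochberg over all 13650 at 0.05. An exact permutation test of 3 against 3 cannot go below 0.1 and was not run. In lists, 424 genes with several probe sets were represented by their brightest one. Other steps used Python 3.11.15.

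Genes were named if they passed the threshold, if they were among the 15 higher and 15 lower genes with the smallest p or the 10 higher and 10 lower with the largest non-overlapping differences at an unadjusted p under 0.05 with both group means above 5.21, or if they were members of lists under an unadjusted p of 0.05 or their extremes; Myh6, Scgb1a1, Alb, Pf4, Itga2b and Nxpe4 were added after their values were seen. The comparison, its lists and its tests were chosen with earlier results of these data known. The labels do not say whether replicate numbers pair the hearts, and they were not taken to do so. Alternatives were other normalizations, filters, moderation and weights, covariates for Y-linked and atrial signal, the replicate number as a block, each heart left out and, chosen after the data were seen, a correction for gene span and the removal of both knockout hearts numbered 1.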

Additional observations from a re-analysis of the deposited data

Results flagged for a closer look

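Probe sets that the annotation gave several symbols or none were left out of the comparison and tested apart. Of 3246 such probe sets above the filter level, 2 passed an adjusted p of 0.05 in limma, both lower in Col4a3-/-OPN-/- hearts, and at an unadjusted p under 0.05 there were 167 higher and 469 lower.

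Probe set 17503531, which carries several symbols, had the larger difference, -4.23 (SE 0.26, adjusted p = 0.000113 in limma). It read 9.53, 8.92 and 9.73 in Col4a3-/- hearts, 9.08, 8.26 and 8.51 in wild type hearts, and 5.10, 4.89 and 5.48 in Col4a3-/-OPN-/- hearts. The Col4a3-/-OPN-/- hearts were thus near the filter level of 5.21, where all hearts of the other genotypes were far above it.

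Probe set 17440132, which the annotation does not list, differed by -2.21 (SE 0.16, adjusted p = 0.000296 in limma). It read 10.30, 10.43 and 10.54 in Col4a3-/- hearts, 9.83, 10.07 and 9.73 in wild type hearts, and 7.90, 8.29 and 8.45 in Col4a3-/-OPN-/- hearts, without overlap between the Col4a3-/-OPN-/- hearts and the others. Neither probe set is assigned to a gene here.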

How the results depend on the processing

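The count of calls (6 higher, 0 lower) was within 1.5 times of its value after centring, without the filter, with 1 probe set per gene and without the eBayes trend, and with only the 6 arrays compared. In the last of these, the 5 calls held only Myh11 and Cyp2d22 of the 6, beside Rps13, Ogdhl and Nxpe4. It was 2 higher and 0 lower with the stricter filter and with array weights, 1 higher with genotype weights, 3 higher with gene span correction, and 0 without the 2 knockout hearts numbered 1 and with the Y-linked covariate. With the atrial covariate there were 0 higher and 5 lower calls, which were fat genes and Hp (Dio2, Adipoq, Otop1, Plin1 and Hp). Renewed quantile normalization and robust eBayes each gave 1 lower call (Bcat2), and all probe sets above the median gave 2 lower calls. Over single hearts left out, calls ran from 0 to 22, higher calls from 0 to 19 and lower calls from 0 to 4.

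With the replicate number as a replicate block there were 0 calls. Same-numbered hearts of the 2 genotypes had deviations from their group means that correlated at -0.188, -0.0881 and 0.23. The numbers were not taken to pair them. With so few hearts in a group, these correlations cannot settle whether they were paired.

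Signs turned in several receptor genes and a few others. With the atrial covariate these were Itgb3 (0.0217), Itga5 (-0.26), Itga4 (-0.0608) and Cd44 (-0.0713), and also Podn (-0.0925), Gpm6a (-0.0261) and Sln (-0.0824). With the Y-linked covariate they were Itgb7 (-0.0257), Itga5 (-0.077) and Itgb1 (-0.0483), and with array weights Itgb7 (-0.0047) and Itga5 (-0.086). Renewed quantile normalization turned Itga5 (-0.00796). Gene span correction turned Itgb7 (-0.0267), Itga5 (-0.0363), Cd44 (-0.11) and Itgb1 (-0.0884). Without both knockout hearts numbered 1, Itgb7 (-0.0215), Itga5 (-0.17), Itga4 (-0.0854), Itgav (-0.0186), Cd44 (-0.22) and Itgb1 (-0.0968) turned. Over single hearts left out, differences ran across 0 in Itgb3 (from -0.35 to 0.16), Itgb7 (from -0.0259 to 0.0400), Itga5 (from -0.0874 to 0.15), Itgb6 (from -0.15 to 0.69), Cd44 (from -0.23 to 0.24) and Itgb1 (from -0.0600 to 0.0879). The causes were not tested. Gene span correction and the removal of both hearts numbered 1 were chosen after the data were seen.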

Other observations

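Genes of detoxification were another group of which Cyp2d22 was not the only member on the higher side. Of 32 cytochrome P450 and detoxification genes, 7 had a higher mean when osteopontin was lacking, at an unadjusted p under 0.05, and none a lower one (median 0.23). Of all 26 tested genes with a Cyp name, 2 were higher and 2 lower (median -0.00321). Aox1, an aldehyde oxidase, read 6.77, 6.98 and 7.22 in Col4a3-/- hearts and 7.43, 7.46 and 8.003 in Col4a3-/-OPN-/- hearts, without overlap (0.64). The sulfotransferase gene Sult1a1 (0.63), the epoxide hydrolase gene Ephx1 (0.55) and the carboxylesterase gene Ces2g (0.50) were among the others, and the count was 3 without Col4a3-/- replicate 3 but 4 when Col4a3-/-OPN-/- replicate 3 was left out.

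Of 21 circadian clock genes, 3 were higher and 1 lower. Per3, a repressor of the clock, read 6.65, 6.03 and 5.91 in Col4a3-/- hearts and 6.87, 6.93 and 6.91 in Col4a3-/-OPN-/- hearts (0.71). Nfil3, a transcription factor that opposes Hlf (0.51) and its relatives at their shared sites, read 7.11, 7.22 and 7.93 against 6.91, 6.74 and 6.66 (-0.65). The time of day at which hearts were taken is not in the labels, and 6 members were higher without Col4a3-/- replicate 3.

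Snap91 was joined by 1 other gene of synaptic vesicles with a large difference: Slc17a7, a vesicular glutamate transporter, read 6.26, 6.62 and 6.19 in Col4a3-/- hearts, 7.51, 7.46 and 7.34 in Col4a3-/-OPN-/- hearts and 8.32, 7.27 and 7.70 in wild type hearts (1.08, adjusted p = 0.144 in limma). Of 22 synaptic and sympathetic nerve genes, 3 were higher, 6 without Col4a3-/- replicate 1, and none was lower (median 0.06).

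Of the 43 genes chosen by the size of their p or by a difference with both group means above 5.21, 9 (20.9%) lie on chromosome 7, which holds 1026 (7.84%) of the tested genes. They are Trappc6a, Igsf23, Zfp235, AF357399, Bcat2, Kcnj11, Hddc3, Homer2 and Gdpd3. Rps13, also on chromosome 7, is not counted because its Col4a3-/- mean was under that level. This was noticed in the values and was not tested.

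Of 259 zinc finger genes of the Zfp family, 32 (12.4%) were higher and 3 (1.16%) lower (19 higher without Col4a3-/-OPN-/- replicate 1). Of 301 predicted genes with a Gm name, 10 (3.32%) were higher and 55 (18.3%) lower (35 lower without Col4a3-/-OPN-/- replicate 1). Of all genes, 8.64% were higher and 4.62% lower. The trend with gene span was not taken out of these counts.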
